A study of Mus musculus with 16 samples.

Results

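The transcripts of 9 regulators of the BCL2 family were followed in muscle stem cells (MuSCs) with and without the telomere-binding protein TRF2. They were taken by gene symbol from a table of 24411 genes, as a family chosen with earlier results of these data known: the effectors Bax and Bak1, the BH3-only genes Bid, Bbc3, Pmaip1 and Bcl2l11, and the pro-survival genes Bcl2, Bcl2l1 and Mcl1. All 9 were in the table. The study holds 16 RNA sequencing libraries, 4 in each of 4 groups: control uninjured, TRF2 MuSC-cKO uninjured, control at 3 days post-injury (DPI) and TRF2 MuSC-cKO at 3 DPI. The comparisons ask whether loss of TRF2, injury, or both together moved the transcripts that set the threshold for mitochondrial cell death.

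In TRF2 MuSC-cKO mice, floxed TRF2 alleles were removed by a tamoxifen-inducible Cre recombinase driven by Pax7, a gene of quiescent and activated MuSCs. Deletion can therefore reach only cells that expressed Pax7 at the time of tamoxifen, which was begun at 8 to 10 weeks of age. The control mice are labelled wild type, and whether they carried Cre or received tamoxifen is not given in the sources used here. All mice were on a C57BL/6 background. At 3 DPI the tibialis anterior muscle had been injected with 10 µl of notexin, a snake venom toxin that destroys myofibres. Cells negative for CD45, CD31, CD11b and Sca1 and positive for α7-integrin and VCAM (or CD34) were sorted. The libraries are labelled as biological replicates, and which animal gave which library is not stated.

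BCL2 family proteins meet at the outer mitochondrial membrane. Bax and Bak1 form the pores that release cytochrome c, the pro-survival proteins hold them and the BH3-only proteins in check, and BH3-only proteins are induced or activated by stress and tip the balance towards pore formation. Cytochrome c then assembles the apoptosome with Apaf1 and starts the caspase cascade. Bbc3 (PUMA), Pmaip1 (NOXA) and Bax are textbook targets of the transcription factor p53, and Mcl1 is a short-lived protein on which many progenitor and myeloid cells depend. Transcript levels do not measure the protein, its location or cell death.

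The members share the BH3 motif, a short helix that fits the groove of the pro-survival proteins, and its coding stretch is shown because it is what makes these genes 1 family. The capitals mark a leucine codon and the glycine (or alanine) and aspartate codons that follow it, in the GENCODE M21 transcript with the longest coding sequence, 5′ to 3′.
Bax: gagtgtCTCcggcgaattGGAGATgaa
Bak1: cggcagCTTgctctcatcGGAGATgat
Bid: agacatCTCgcccaaataGGCGATgag
Bbc3: gcccagCTGcggcggatgGCGGACgac
Bcl2l11: caggagCTGcggcggatcGGAGACgag
Bcl2: ctgaccCTCcgccgggctGGGGATgac
Bcl2l1: caagcgCTGagagaggcaGGCGATgag
Mcl1: gagaccCTGcggcgcgtgGGCGACggc

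On GRCm38 these stretches are coding exon sequence at chr7:45466003-45466029 (minus strand, exon 3 of 6) for Bax and chr17:27022537-27022563 (minus strand, exon 4 of 6) for Bak1. The stretch of Bid is at chr6:120897295-120897321 (minus strand, exon 4 of 7), that of Bbc3 at chr7:16313767-16313793 (plus strand, exon 3 of 4) and that of Bcl2l11 at chr2:128147144-128147170 (plus strand, exon 3 of 4). For the pro-survival genes they are at chr1:106712581-106712607 (Bcl2, minus strand, exon 1 of 2), chr2:152829703-152829729 (Bcl2l1, minus strand, exon 2 of 3) and chr3:95659430-95659456 (Mcl1, plus strand, exon 1 of 3). Bbc3 alone among the 8 carries an alanine codon where the other 7 carry glycine. Pmaip1 is not shown. In the annotation Bax overlaps Gm45808, Bid overlaps Gm44260 and Bcl2 overlaps Mir3473f and Gm37053 on their own strands. On the opposite strand Bak1 overlaps Ggnbp1, Bid overlaps Bcl2l13 and a pseudogene, and Bcl2 overlaps an antisense RNA, so the reads of these 4 genes may be shared with a neighbour.

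The libraries held 620506 to 1351130 estimated counts, of which 446 to 1220 fell on the 9 members, so most members rest on few counts per library. Levels are given as CPM, counts brought to a common library size by TMM over all 16 libraries. The Terf2 transcript, which encodes TRF2, was at 71.5, 94.5, 66.3 and 73.1 CPM in the uninjured controls and at 49.7, 46.7, 58.7 and 27.2 CPM in uninjured TRF2 MuSC-cKO. Those groups do not overlap, as for 6.64% of all genes tested in that direction, but the difference (log2 fold change -0.62 ± 0.27, SE, n = 4 per group, edgeR adjusted p = 0.199) did not pass the test. At 3 DPI, Terf2 was at 35.5, 48.6, 48.2 and 42.8 CPM in controls and at 52.6, 21.9, 66.9 and 89.7 CPM in the libraries labelled TRF2 MuSC-cKO, 3 of which lie above every control, so the transcript does not bear out the 3 DPI label and those libraries are named by it only. Which exons were removed is not given in the sources used here.

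Library 3 of the TRF2 MuSC-cKO 3 DPI group stood apart, with 15387 genes detected against 19996 to 21879 in the other 15, and with 1 count of Bax, 4 of Bak1 and 0 of Bid. Member estimates that moved by over 1.5 times or changed call without it are given both ways, apart from 2 interaction estimates near 0 (Bcl2l1 and Mcl1). MuSC marker genes were present in every library, summing to 4253 to 6424 CPM in control uninjured, 2346 to 3511 in TRF2 MuSC-cKO uninjured, 1152 to 1699 in control 3 DPI and 557 to 763 in labelled TRF2 MuSC-cKO 3 DPI libraries, so the genotypes did not overlap at either time. The sum of 10 myeloid markers was 68.2 to 187 CPM in uninjured and 2148 to 6627 CPM in 3 DPI libraries, although the sort removes CD45+ and CD11b+ cells. In bulk RNA, fewer cells of a type and less RNA per cell cannot be told apart.

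Per transcript length, the only scale on which different genes can be set against each other, Mcl1 was the most abundant member in all 4 groups, at 229 ± 18.5, 205 ± 39.6, 345 ± 48.7 and 268 ± 59.1 TPM (SD, n = 4) in control uninjured, TRF2 MuSC-cKO uninjured, control 3 DPI and labelled TRF2 MuSC-cKO 3 DPI. It lay above every library of the next member in 3 groups, and in uninjured TRF2 MuSC-cKO its libraries overlapped those of Bax. In uninjured controls Bax (74.5 ± 36.1 TPM), Bcl2l1 (71.0 ± 17.0) and Bcl2 (54.4 ± 18.9) followed, and each overlapped its neighbour in the order. Bak1, Bbc3 and Bcl2l11 came next at 40.0, 38.9 and 36.0 TPM, and Bid (16.7 ± 10.9 TPM) and Pmaip1 (9.65 ± 4.93 TPM) were the lowest.

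The order of the other members moved between groups. Bbc3 stood 6th of 9 in uninjured controls and 3rd in uninjured TRF2 MuSC-cKO, at 112 ± 9.48 TPM. Bcl2 stood 4th in uninjured controls and last in controls at 3 DPI, at 16.8 ± 2.25 TPM. There its libraries overlapped those of its neighbour Pmaip1. Bak1 stood 5th and 3rd in the same groups, the latter at 141 ± 31.7 TPM, beside Bax at 146 ± 19.1 TPM.

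**Figure D1:**
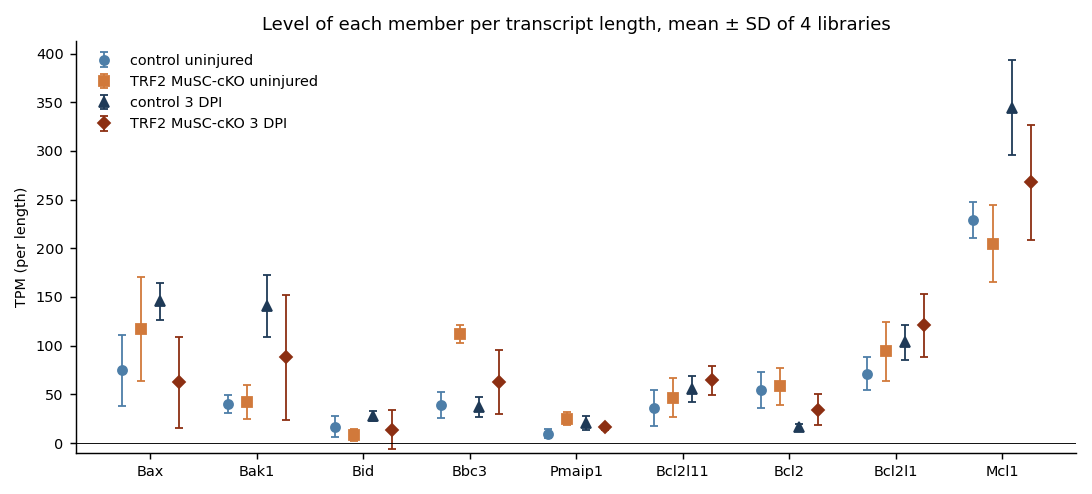
Level of each member per transcript length in TPM (vertical axis) for the 9 members (horizontal axis), as the mean and SD of 4 libraries in each of the 4 groups. Mcl1 is the highest member in every group, from 205 to 345 TPM, and Bid and Pmaip1 lie at or below 27.8 TPM throughout.

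In uninjured MuSCs 1 member was called higher in TRF2 MuSC-cKO than in control: Bbc3, a BH3-only gene that binds all the main pro-survival proteins. The groups also differ in description code and in cell type markers, as given below. Bbc3 was at 42.9, 37.8, 15.1 and 40.0 CPM in the 4 controls and at 71.0, 72.7, 85.9 and 79.0 CPM in the 4 TRF2 MuSC-cKO libraries. Every TRF2 MuSC-cKO library lies above every control, as was so for 4.98% of all genes tested, and the TRF2 MuSC-cKO libraries lie close together. The fitted rise was 2.46-fold (log2 fold change 1.30 ± 0.29, SE, n = 4 per group, edgeR adjusted p = 0.00309). Of the 8 members tested, 1 was called (adjusted p under 0.02 and fold over 1.5), against a background of 3.22% of the 14048 genes tested in either direction and 0.584% in the direction of a rise. Over all genes 82 rose and 370 fell, or 176 and 212 with library size alone as the scaling. The call was lost when all 16 libraries shared 1 fit (log2 fold change 1.17, adjusted p = 0.159). It was also lost in the second table, scaled from abundance to each library's total (1.26, adjusted p = 0.0741).

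Pmaip1, the BH3-only gene that chiefly restrains Mcl1, was at 13.4, 2.70, 12.8 and 16.6 CPM in controls and at 27.2, 23.9, 25.8 and 16.3 CPM in TRF2 MuSC-cKO. On the scale common to all 16 libraries the highest control and the lowest TRF2 MuSC-cKO library lie next to each other and overlap. With the 8 libraries scaled on their own they do not overlap, because that scaling raises TRF2 MuSC-cKO relative to control by 0.124 on the log2 scale. Its log2 fold change of 1.17 ± 0.50 did not pass (edgeR adjusted p = 0.183). Bax, the effector that moves from cytosol to mitochondria, was at 40.2, 14.4, 32.6 and 17.5 CPM in controls and 14.2, 30.1, 51.5 and 39.5 CPM in TRF2 MuSC-cKO, with groups that overlap widely (log2 fold change 0.48 ± 0.39, edgeR adjusted p = 0.529).

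Mcl1 was at 382, 375, 291 and 374 CPM in uninjured controls and at 290.0, 252, 196 and 269.7 CPM in TRF2 MuSC-cKO. On the common scale the highest TRF2 MuSC-cKO library lies just under the lowest control, and on the scale of the 8 libraries the groups overlap. On the latter scale 6.64% of all genes tested lay lower without overlap. The fitted log2 fold change was -0.37 (95% interval -0.75 to 0.016, edgeR adjusted p = 0.278). The remaining members were nearer to no difference: Bak1 at -0.16 (interval -0.88 to 0.57), Bcl2l11 at 0.060 (-0.58 to 0.70), Bcl2 at -0.23 (-0.69 to 0.23) and Bcl2l1 at 0.28 (-0.24 to 0.79) on the log2 scale. Each of these 4 intervals reaches past 1.5-fold in at least 1 direction. The estimates for Bak1 and Bcl2l11 changed sign under other settings.

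Bid, which caspase-8 cleaves to link death receptors to mitochondria, was too low for the test, with 4, 19, 19 and 11 counts in uninjured controls and 6, 0, 3 and 7 in TRF2 MuSC-cKO. The count of 0 allows up to 3.12 CPM (3 counts, counting error only). The groups overlap, and an exact permutation test gave p = 0.171, two-sided, where 0.0286 is the smallest that 4 against 4 libraries allow.

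The wider pathway from the same comparison was read from lists of related genes, which were chosen with earlier results of these data known and are no independent evidence. None of the 10 tested other BCL2 family genes, 16 apoptosome and caspase genes, 8 death receptor genes or 8 mitochondrial partners was called in either direction. Among 20 upstream regulators, Mdm2, the ubiquitin ligase of p53 and itself a p53 target, rose (log2 fold change 1.46 ± 0.24, edgeR adjusted p = 7.43e-05), and Foxo1, a transcription factor that can induce Bcl2l11 and Bbc3, fell by 0.78 on the log2 scale (adjusted p = 0.0076). Of 17 other p53 targets tested, 7 rose and none fell. Those of smallest p were Cdkn1a, the cell cycle inhibitor p21 (log2 fold change 2.37 ± 0.20), Phlda3 (2.07 ± 0.22), Zmat3 (1.82 ± 0.25) and Aen (1.72 ± 0.24), each with an edgeR adjusted p of at most 4.43e-06. The median over these 17 was 1.35 on the log2 scale, that over the 8 tested BCL2 members 0.17 and that over all genes 0.058.

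Other cell type markers moved with the genotype as well. Of 11 MuSC markers 7 were called lower, with a median of -0.88 on the log2 scale. Of 5 tested fibroadipogenic markers 2 were called lower (Col3a1 and Dpt) and 1 higher (Dcn). The sum of the 6 listed was at 4456 to 6954 CPM in controls and 986 to 1971 CPM in TRF2 MuSC-cKO. Of the 5 tested, however, 3 had an estimate above 0, and the median of the 5 was 0.65 on the log2 scale. None of the 6 tested myeloid markers was called, but their summed level was higher in every TRF2 MuSC-cKO library (121 to 187 CPM) than in every control (68.2 to 114 CPM). The sums of neutrophil markers (49.0 to 81.7 against 24.1 to 36.1 CPM) and of Schwann cell markers (351 to 471 against 238 to 314 CPM) were likewise higher without overlap, and none of the 2 and 5 tested was called. Of 6 mural markers 2 were called higher and 0 lower, with a median of 0.69 on the log2 scale. Their sums overlap (592 to 759 CPM in controls and 601 to 1480 CPM in TRF2 MuSC-cKO). The part of these cell types in the rise of Bbc3 was not tested. No description code is shared between the uninjured controls and the uninjured TRF2 MuSC-cKO libraries, so whatever the code stands for, which the sources used here do not give, cannot be told apart from genotype here.

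A 10-base p53 half-site lies in the Bax promoter and is shown because Bax is a textbook p53 target and other p53 targets rose in the same comparison. RefSeq promoters of GRCm38.p6 (250 bases before to 50 after a start) were found for 8 of the 9 members, in 13 windows, Pmaip1 not among them. The half-site of Bax is AGGCAAGCTT at chr7:45467090-45467099 (minus strand, 201 to 192 bases before the start), and the capitals are the whole site. The search used the p53 half-site consensus, which reads the same on both strands. No other member's windows match it, and 8.4% of 32851 promoters in the table do. The match describes the sequence only.

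**Figure D2:**
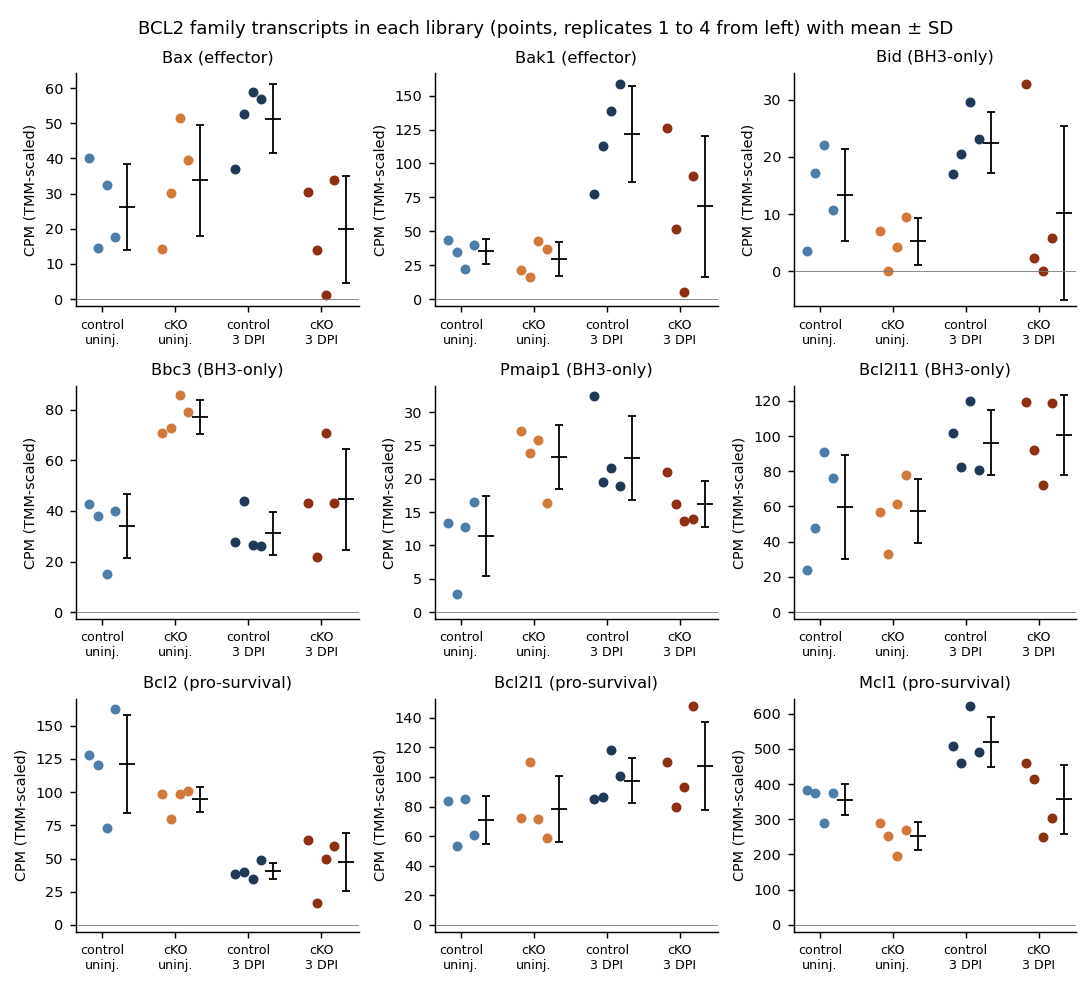
CPM (vertical axis) of each member in every library (points, replicates 1 to 4 from left to right) in the 4 groups, with the mean and SD at the right of each group. Bbc3 is higher in all 4 uninjured TRF2 MuSC-cKO libraries (71.0 to 85.9 CPM) than in any uninjured control, and Bcl2 is lower in all 8 libraries at 3 DPI than in any uninjured library.

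In the control libraries the effector Bak1 was higher and the pro-survival gene Bcl2 lower at 3 DPI than without injury. Of 9 members, 3 rose (Bak1, Bax and Mcl1) and 1 fell (Bcl2), where 20.2% of the 15356 genes tested were called, 10.8% as a rise (1652 genes) and 9.46% as a fall (1452 genes), or 1989 and 1066 genes with library size alone as the scaling. The calls of Bak1 and Bcl2 held in all 18 alternative settings, and those of Bax and Mcl1 did not.

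Bak1, the effector that resides in the mitochondrial membrane, was at 43.8, 35.1, 22.1 and 40.0 CPM in uninjured controls and at 77.2, 113, 139 and 159 CPM in controls at 3 DPI. Every injured library lies above every uninjured one, as for 12.7% of all genes tested, and the lowest injured library is still well above the highest uninjured one. The fitted rise was 3.57-fold (log2 fold change 1.83 ± 0.25, SE, n = 4 per group, edgeR adjusted p = 1.18e-07). Bax was at 40.2, 14.4, 32.6 and 17.5 CPM before and 37.1, 52.5, 59.0 and 56.8 CPM after injury, so the lowest injured library lies below the highest uninjured one. Its rise of 2.03-fold (log2 fold change 1.02 ± 0.32, edgeR adjusted p = 0.0148) was lost in 10 of 18 alternative settings, DESeq2 and the robust limma fit among them (adjusted p = 0.0250 and 0.0967). It was also lost without control uninjured library 2 or 4, or control 3 DPI library 2, 3 or 4 (adjusted p = 0.0396 to 0.0929).

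Bcl2, the founding pro-survival gene of the family, fell. It was at 128, 121, 73.2 and 163 CPM in uninjured controls and at 38.6, 39.9, 34.4 and 48.5 CPM at 3 DPI. The injured libraries are tightly grouped and all below the uninjured ones, as for 11.8% of all genes tested. Bcl2 fell by 1.53 on the log2 scale (SE 0.24, to 0.346 of the uninjured level, edgeR adjusted p = 2.17e-06).

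Mcl1 was at 382, 375, 291 and 374 CPM before and 509.6, 459, 621 and 490.4 CPM after injury in controls. All injured libraries lie above all uninjured ones, by a modest margin. The fitted rise was 1.505-fold (log2 fold change 0.59 ± 0.18, edgeR adjusted p = 0.0139), at the edge of the fold threshold, and it was called in 4 of 18 alternative settings. It was lost without any 1 of the uninjured controls, or without control 3 DPI library 3 or 4 (edgeR adjusted p = 0.0211 to 0.0931). The third pro-survival gene, Bcl2l1 (BCL-XL), was at 84.0, 53.1, 84.9 and 60.4 CPM before and 84.9, 86.6, 118 and 100.4 CPM after injury (log2 fold change 0.51 ± 0.23, edgeR adjusted p = 0.104), which did not pass.

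Control uninjured library 4 shares a description code with control 3 DPI libraries 3 and 4, and no other code spans these groups. Within that code Bak1 was at 40.0 CPM before and 139 and 159 CPM after injury, and Bax was at 17.5 against 59.0 and 56.8 CPM. Bcl2 was at 163 against 34.4 and 48.5 CPM, and Mcl1 at 374 against 621 and 490.4 CPM. All 4 lie in the direction of the full comparison, and with 1 uninjured library they carry no test.

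None of the 4 BH3-only genes was called in this comparison. Bcl2l11 (BIM), which binds every pro-survival member, ranged from 24.1 to 90.7 CPM before and from 80.6 to 120.0 CPM after injury (log2 fold change 0.74 ± 0.28, edgeR adjusted p = 0.0524) and was called in 3 of the 18 alternative settings. Pmaip1 ranged from 2.70 to 16.6 CPM before and 18.9 to 32.4 CPM after injury, without overlap (log2 fold change 1.05 ± 0.47, adjusted p = 0.103). Bid (log2 fold change 0.81, interval -0.11 to 1.72) did not pass, and Bbc3 was near 0 (-0.089, interval -0.77 to 0.59), with 42.9, 37.8, 15.1 and 40.0 CPM before and 27.8, 43.8, 26.6 and 26.3 CPM after injury.

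The related lists stand beside 10.8% of all genes called as a rise and 9.46% as a fall in this comparison. Of 17 apoptosome and caspase genes tested, 3 rose and none fell: Apaf1, the apoptosome scaffold (log2 fold change 1.02 ± 0.26, edgeR adjusted p = 0.00245), Birc5, which is also a mitotic gene (1.65 ± 0.44, adjusted p = 0.00314), and Cycs, cytochrome c (0.99 ± 0.28, adjusted p = 0.00578). Casp8, the initiator caspase of death receptors, rose by 2.37 ± 0.36 and was the only 1 of 8 death receptor genes called. The channels Vdac2 (1.29 ± 0.26), which anchors Bak1, and Vdac1 (0.95 ± 0.23) rose among 8 mitochondrial partners. Of 11 other BCL2 family genes tested, Bcl2a1b, a pro-survival gene of leukocytes, was the only call. It had 2 counts in 1 uninjured control and 0 in the other 3, and 10 to 37 counts at 3 DPI, and its reads may be split among its near-identical neighbours.

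Of 20 upstream regulators 5 were called lower, 1 was called higher and 14 were not called, where 9.46% of all genes were called as a fall. Jun (log2 fold change -2.42 ± 0.19), Foxo1 (-2.40 ± 0.20), Mdm4, a p53 inhibitor (-1.56 ± 0.21), and Foxo3 (-1.48 ± 0.20) fell, each with an edgeR adjusted p of at most 9.35e-08. Of 17 other p53 targets, 2 rose and 4 fell, with a median of 0.066 on the log2 scale, as over all genes.

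Myeloid markers moved with injury in the same libraries. All 10 were called higher in controls, with the sum at 68.2 to 114 CPM before and 5149 to 6627 CPM after injury, and Lyz2 went from 5.80 ± 3.73 to 2527 ± 285 CPM. None was at 0 over a whole group. MuSC markers were called lower in 10 of 11. Of 6 fibroadipogenic markers 4 were called higher and 2 lower, while their sum went from 4456 to 6954 CPM to 2644 to 4019 CPM. Of 5 tested myofibre markers 2 were called higher. Of 2 tested neutrophil markers 1 was called higher, and of 6 endothelial markers 1 was called lower. No mural, Schwann or lymphoid marker was called. The part of these cell types in the rise of Bak1, Bax and Mcl1 and in the fall of Bcl2 was not tested.

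**Figure D3:**
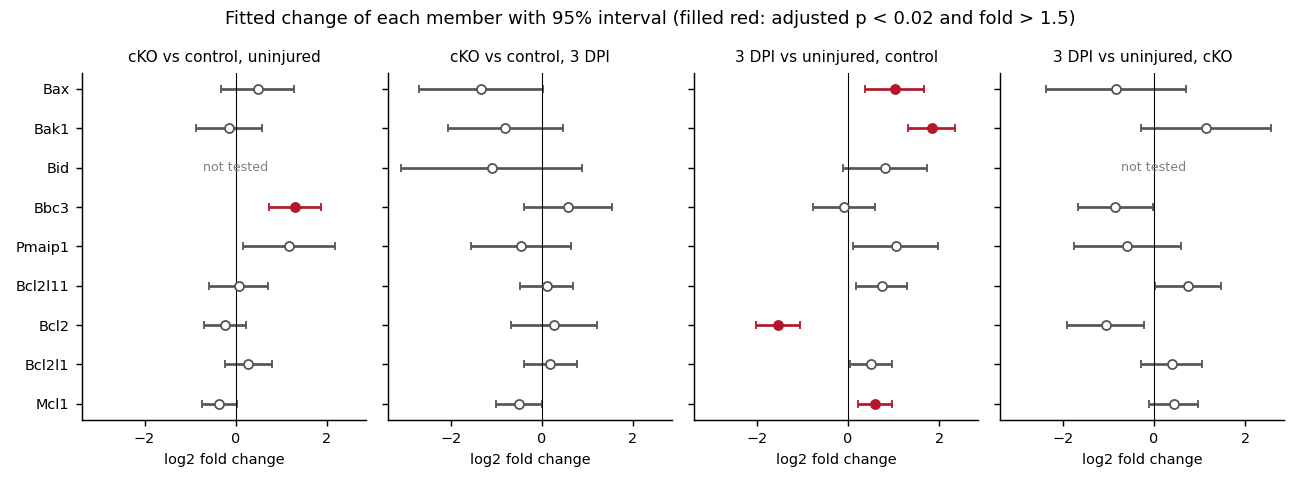
Fitted log2 fold change (horizontal axis) with its 95% interval for each member in the 4 comparisons. Filled red points passed the test. They are Bbc3 for TRF2 loss in uninjured MuSCs (1.30) and Bax, Bak1, Bcl2 and Mcl1 for injury in controls, with Bcl2 the only 1 below 0.

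In the labelled TRF2 MuSC-cKO libraries, injury gave no called member among the 8 tested, against 4.04% of 14578 genes tested. DESeq2 and both limma fits also called 0 of the 8, and 3 members had an unadjusted edgeR p under 0.05, as did 16.4% of genes. Bcl2 was at 98.2, 80.0, 98.8 and 101 CPM before and 64.3, 16.1, 49.6 and 59.4 CPM after injury. All injured libraries lie below all uninjured ones, as do 7.87% of genes (log2 fold change -1.06 ± 0.39, edgeR adjusted p = 0.164). Bbc3 went from 71.0 to 85.9 CPM before injury to 21.9 to 70.7 CPM after it, again without overlap (-0.84 ± 0.38, adjusted p = 0.288). Without library 3 of 3 DPI, Bcl2 was at -1.06 (edgeR adjusted p = 0.0534) and Bbc3 at -1.13 (edgeR adjusted p = 0.0297), neither of them called.

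Bak1 was at 21.3, 16.6, 42.9 and 36.8 CPM before and 126, 51.9, 4.96 and 90.9 CPM after injury in TRF2 MuSC-cKO. The other 3 injured libraries lie above every uninjured one, while library 3 lies below them all. The log2 fold change was 1.15 ± 0.67 (edgeR adjusted p = 0.454) with that library and 1.58 (adjusted p = 0.00444, called) without it. In the latter fit 803 of 15547 genes were called higher and 513 lower. Without library 1 of the same group Bak1 was at 0.67 (edgeR adjusted p = 0.739). Bcl2l11 (0.75 ± 0.34, adjusted p = 0.285) and Mcl1 (0.43 ± 0.25, adjusted p = 0.454) did not pass, with library 3 or without it. Bax stood at -0.84 ± 0.72 (adjusted p = 0.659), or at -0.41 (adjusted p = 0.720) without library 3, and Bid was not tested, with 28, 2, 0 and 5 counts after injury. Myeloid markers were called higher in 9 of 10 here, and MuSC markers lower in 8 of 11.

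Between genotypes at 3 DPI, no member of the 9 tested was called, and neither was any of 14559 genes (0%). DESeq2 called 22 genes and the robust limma fit 28, with no member among them, and 1 member, Mcl1, had an unadjusted edgeR p under 0.05, as did 1362 genes (9.36%). Bax was at 37.1, 52.5, 59.0 and 56.8 CPM in controls and 30.4, 13.8, 1.24 and 33.8 CPM in the labelled TRF2 MuSC-cKO libraries, all of which lie below all controls. That separation, in the same direction, was seen in 4.35% of genes. The log2 fold change of Bax was -1.34 ± 0.63 (edgeR adjusted p = 0.532), and -0.97 (adjusted p = 0.272) without library 3.

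Mcl1 was at 509.6, 459, 621 and 490.4 CPM in controls and 459, 414, 249 and 303 CPM in the labelled TRF2 MuSC-cKO libraries at 3 DPI. The highest of the latter equals the lowest control to the digits printed, and the groups overlap (log2 fold change -0.50, interval -1.004 to -0.0021, edgeR adjusted p = 0.529). Without library 3 Mcl1 was at -0.39, Bak1 at -0.43 in place of -0.80, Bid at -0.71 in place of -1.10, Bbc3 at 0.23 in place of 0.57 and Bcl2l11 at 0.22 in place of 0.11 on the log2 scale, and none was called. Leaving out each of the 8 libraries in turn gave -1.28 to -0.43 for Bak1, -2.95 to -0.71 for Bid and 0.23 to 0.78 for Bbc3. With all libraries the other members had wide intervals: -2.06 to 0.45 for Bak1, -3.09 to 0.88 for Bid, -0.39 to 1.53 for Bbc3, -1.56 to 0.64 for Pmaip1, -0.48 to 0.69 for Bcl2l11, -0.67 to 1.21 for Bcl2 and -0.40 to 0.77 for Bcl2l1. Bid rests on library 1, at 32.7 CPM beside 2.31, 0 and 5.82 CPM in the other 3, and the count of 0 allows up to 3.72 CPM. The MuSC marker sum was 1152 to 1699 CPM in controls and 557 to 763 CPM in the labelled TRF2 MuSC-cKO libraries, without overlap, and its part in the values of Bax and Mcl1 was not tested. The myeloid marker sum was 5149, 6476, 6627 and 6186 CPM in controls and 5979, 4529, 2148 and 4314 CPM in the labelled TRF2 MuSC-cKO libraries. The library lowest in Bax and Bak1, and lowest in Mcl1, is also the lowest in myeloid markers.

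In the 3 DPI libraries 1 and 2 of both genotypes, which share a description code, Terf2 had a log2 fold change of -0.18, Bax of -1.02 (edgeR adjusted p = 0.858), Mcl1 of -0.14, Bak1 of -0.096, Bid of -0.095 and Bbc3 of -0.14. The other members were at -0.45 (Pmaip1), 0.21 (Bcl2l11), 0.042 (Bcl2) and 0.15 (Bcl2l1). Bax, Pmaip1 and Bcl2l1 moved by less than 1.5 times from their estimates over all 8 libraries (-1.34, -0.46 and 0.18), and the other 6 members moved by more. With 2 against 2 libraries no member was called.

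Across the 8 libraries at 3 DPI Pearson's correlation of a member's log2 CPM with the log2 sum of the myeloid markers was 0.95 for Bax, 0.96 for Bak1, 0.91 for Bid and 0.89 for Mcl1, and -0.061 for Bcl2 and 0.092 for Bcl2l1. Without library 3 of the labelled TRF2 MuSC-cKO group these became 0.74, 0.80, 0.88 and 0.78, and 0.23 and -0.11. Bbc3, Pmaip1 and Bcl2l11 had -0.625, 0.564 and 0.467 with that library and 0.0923, 0.366 and -0.195 without it. The values describe 8 and 7 libraries that share the injury, the sort and, in each library, 1 depth and scaling.

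**Figure D4:**
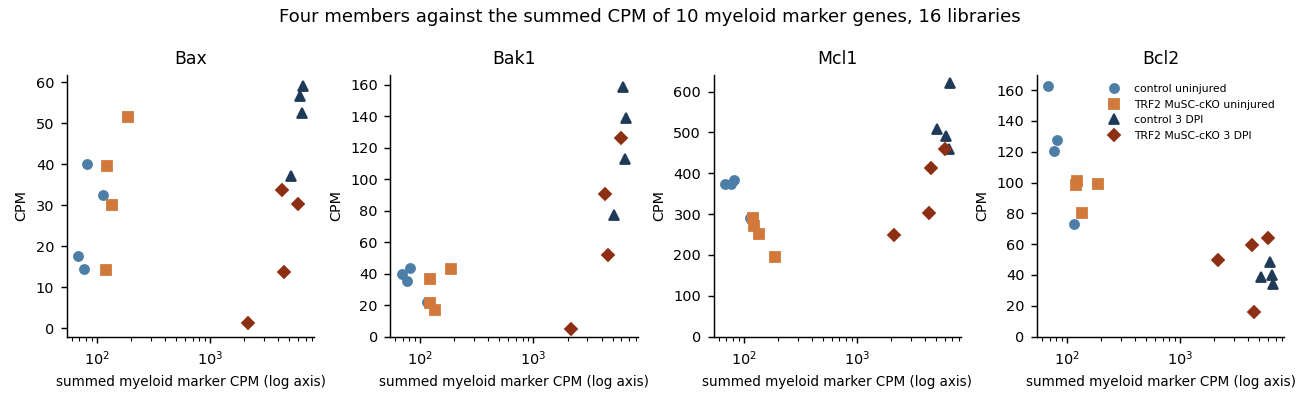
CPM of Bax, Bak1, Mcl1 and Bcl2 (vertical axes) against the summed CPM of 10 myeloid marker genes (horizontal axes, log scale) in the 16 libraries, with 1 symbol per group. At 3 DPI the library with the lowest marker sum (2148 CPM) also holds the lowest Bax (1.24 CPM) and Bak1 (4.96 CPM), while Bcl2 shows no such order.

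Whether the injury response differed between genotypes was tested as an interaction over all 16 libraries. No member of 9 was called, where 3 of 16822 genes were (0.0178%), Cdkn1a (log2 difference -2.40, edgeR adjusted p = 0.000944) and Ccng1 (-2.40, adjusted p = 0.0181) among them. DESeq2 and both limma fits called no member either. At an unadjusted p under 0.05, where 5.74% of genes stood, were 2 members, Bax (-1.73, interval -3.30 to -0.16, adjusted p = 0.825) and Pmaip1 (-1.53, interval -3.02 to -0.04, adjusted p = 0.857). Bbc3 had -0.65 (interval -1.74 to 0.43), and -1.07 (unadjusted p = 0.0303, edgeR adjusted p = 0.595) without library 3. Without that library Bax was at -1.46, Bak1 at -0.27 in place of -0.55 and Bid at 0.53 in place of 0.22, none of them called. With all libraries Bcl2l1 and Mcl1 lay at -0.012 and -0.049, with intervals of -0.81 to 0.79 and -0.69 to 0.59. The Bbc3 rise in uninjured TRF2 MuSC-cKO is therefore not shown to differ from its value at 3 DPI.

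The balance of members within a library was read from ratios of TPM, which carry no test. No share over other gene pairs was computed, so a lack of overlap in a ratio has no background beside it. The ratio of Bcl2 to Bax was 0.421, 1.08, 0.432 and 1.82 in uninjured controls and 0.131, 0.129, 0.0883 and 0.119 in controls at 3 DPI. All 4 controls at 3 DPI lie below every other library of the study. In uninjured TRF2 MuSC-cKO it was 1.46, 0.329, 0.375 and 0.405, overlapping the controls. In the labelled TRF2 MuSC-cKO libraries at 3 DPI it was 0.499, 0.340, 10.7 and 0.249, and the value of 10.7 belongs to library 3, where Bax had 1 count.

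Summed TPM of Bcl2, Bcl2l1 and Mcl1 exceeded that of Bax and Bak1 in all 16 libraries. The excess was 2.36, 4.15, 2.58 and 4.19 times in uninjured controls and 2.25, 1.44, 1.68 and 1.31 times in controls at 3 DPI, so the injured controls lie below the uninjured ones. In TRF2 MuSC-cKO it was 5.02, 2.90, 1.26 and 1.78 times uninjured and 1.93, 3.68, 31.0 and 1.85 times in the labelled libraries at 3 DPI, with overlap on both sides. The ratio of Bcl2l1 to Bax was 0.552 to 0.844 in controls at 3 DPI and 1.21 to 24.7 in the labelled TRF2 MuSC-cKO libraries, without overlap. Bax on its own did not overlap between these groups either. That of Mcl1 to Bcl2l11, a BH3-only gene whose protein Mcl1 binds, was 5.56 to 7.47 and 3.13 to 5.02 in the same groups, again without overlap, and 3.49 to 17.6 and 3.14 to 9.32 in uninjured control and TRF2 MuSC-cKO.

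**Figure D5:**
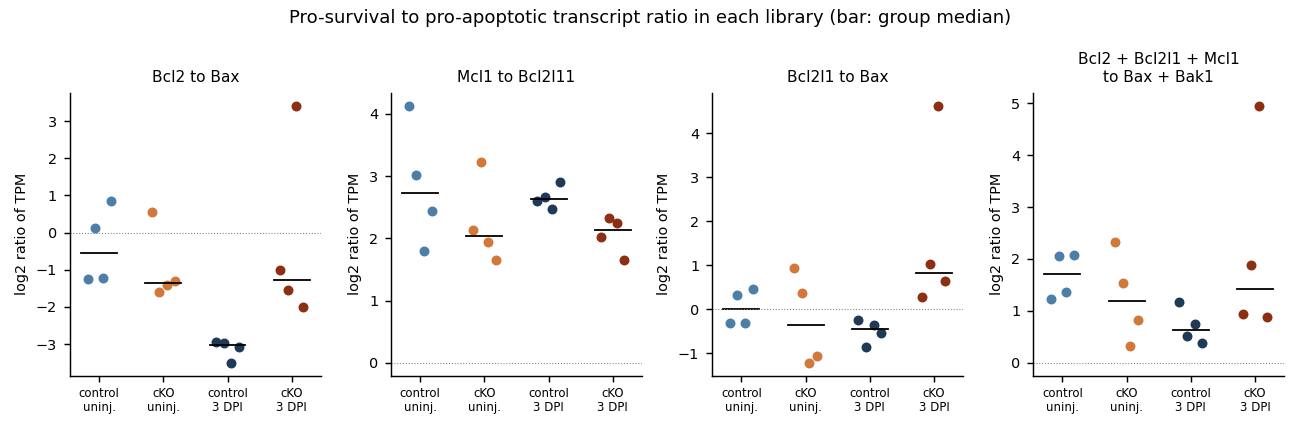
Log2 ratio of TPM (vertical axes) between pro-survival and pro-apoptotic members in each library of the 4 groups, with the group median as a bar. The 4 controls at 3 DPI have the lowest Bcl2 to Bax ratios, and library 3 of the labelled TRF2 MuSC-cKO group at 3 DPI is the highest point for each ratio that has Bax in it.

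For each called member, the 3 genes whose log2 CPM was most like it over the 16 libraries were sought among 11740 genes whose log2 CPM averaged 4 or more. Bak1 was most like Parp1 (r = 0.96), Crip1 (0.95) and Prkcd (0.95), and Bax was most like Flii (0.92), Cwc15 (0.91) and Tomm40 (0.91), which without library 3 of the labelled TRF2 MuSC-cKO 3 DPI group had 0.85, 0.75 and 0.81. Bcl2 was most like Fam124a (0.94), Ogn (0.93) and Tmtc2 (0.91), Mcl1 like Parp12 (0.90), Macf1 (0.89) and Ybx1 (0.89), and Bbc3 like Stk35 (0.88), Lad1 (0.82) and Lsg1 (0.82). These coefficients span groups whose levels differ. With the group means removed they were 0.921 to 0.948 for the genes named beside Bak1, 0.876 to 0.926 beside Bax, 0.745 to 0.840 beside Bcl2, 0.692 to 0.821 beside Mcl1 and 0.746 to 0.843 beside Bbc3.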

How the data were processed

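The 16 libraries were made with the CORALL kit from ribosomal RNA-depleted RNA of sorted MuSCs. The authors trimmed reads with Trim Galore, aligned them with STAR to GRCm38, quantified them with Salmon and deposited estimated counts per gene, and a second table of estimated counts scaled from abundance to each library's total. The submitters' processing notes name Trim Galore 0.6.7, STAR 2.6.1d and Salmon 1.5.2. Collapsing of molecular identifiers and use of strand in counting are not given in the sources used here. Division of the second table by its library totals gave TPM. All value columns were mapped to samples by their labels.

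Estimated counts were rounded, filtered (filterByExpr), scaled by TMM and tested over all genes with edgeR's robust quasi-likelihood test and Benjamini-Hochberg adjustment (R 4.3.3, edgeR 4.0.16), each comparison on its own 8 libraries and the interaction on 16. Calls needed an adjusted p under 0.02 together with a fold over 1.5. SE is the fold change over the root of the test statistic, and intervals are 95%. Log2 CPM had a prior count of 2. Each method was tested on simulated data. CPM over 16 libraries differs from the 8-library scale by -0.124, -0.0425, -0.0387 and 0.0657 on the log2 scale in the uninjured and 3 DPI genotype comparisons and in injury in controls and TRF2 MuSC-cKO. Depth (620506 to 1351130 counts per library) limits low genes. Alternatives were limma 3.58.1 (robust and voom), DESeq2 1.42.0, other scalings, filters and sample sets, a replicate block and the second table. Members and lists were chosen with earlier results of these data known. The genes named are all members, Terf2, up to 4 called genes of smallest p per list and comparison, and the 3 most alike genes per called member; Bcl2l13, Gm45808, Gm44260, Mir3473f, Gm37053 and Ggnbp1 are named only as overlaps, and Lyz2, Col3a1, Dpt and Dcn as markers.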

Additional observations from a re-analysis of the deposited data

Results flagged for a closer look

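In 3 of the 40 sets of 4 libraries formed by 10 genes (the members and Terf2) and 4 groups, 1 library lay apart by Dixon's criterion, which chance flags in about 1 of 20 sets. Mcl1 was at 291 CPM in control uninjured library 3, below 374 to 382 CPM in the other 3. Bcl2 was at 80.0 CPM in TRF2 MuSC-cKO uninjured library 2, below 98.2 to 101 CPM in the others. Bbc3 was at 43.8 CPM in control 3 DPI library 2, above 26.3 to 27.8 CPM in the others. Without the library named, no call on Bcl2 or Bbc3 changed, and Mcl1 lost its call for injury in controls (log2 fold change 0.47, edgeR adjusted p = 0.0458).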

How the results depend on the processing

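With 1 fit of all 16 libraries and with the abundance-scaled table, 0 members were called for TRF2 loss in uninjured MuSCs. For injury in controls 2 members were called by the robust limma fit, by DESeq2 and with median-of-ratios size factors. The same number was called with all 16 libraries in 1 fit and with the abundance-scaled table. Leaving out each library gave 2 to 4 called members there and 0 to 1 for injury in TRF2 MuSC-cKO, where Bak1 was called without library 3 of 3 DPI. Without control uninjured library 2 or 4, or control 3 DPI library 3 or 4, 2 members were called, Bak1 and Bcl2. The causes were not tested. The sign of small estimates changed. For TRF2 loss in uninjured MuSCs Bak1 was at 0.043 with library size alone, and Bcl2l11 at -0.0090 without a filter and -0.057 with all 16 libraries in 1 fit. At 3 DPI, in the 2 against 2 libraries that share the code prefix JH133, Bbc3 was at -0.14 and Terf2 at -0.18. For injury in controls Bbc3 was at 0.093 with library size alone and 0.026 with at least 10 counts in every library. For the interaction Bid was at -0.98 with the robust limma fit and -0.67 with limma-voom. Bcl2l11 was there at -0.032 with library size alone, -0.0102 without a filter and -0.027 with the abundance-scaled table. Leaving out 1 library gave ranges that cross 0 for Bak1 (-0.41 to 0.041) and Bcl2l11 (-0.23 to 0.33) in uninjured MuSCs, Bcl2l1 at 3 DPI (-0.022 to 0.29), Bbc3 for injury in controls (-0.36 to 0.028), and Bid (-1.63 to 0.57), Bcl2l11 (-0.14 to 0.40), Bcl2l1 (-0.25 to 0.21) and Mcl1 (-0.27 to 0.050) for the interaction.

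Same-numbered libraries correlated in their deviations from group means by -0.11 to 0.111, so the numbers were not taken to pair the samples. With the replicate block, 1 member was called for TRF2 loss in uninjured MuSCs, 0 at 3 DPI, 3 for injury in controls (Mcl1 lost its call, adjusted p = 0.0456), and 0 for the other comparisons.

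Library size alone moved the median over all genes from 0.058 to 0.24 in uninjured MuSCs, from 0.00144 to 0.11 at 3 DPI, from 0.066 to 0.23 for injury in controls, from 0.00705 to 0.13 for injury in TRF2 MuSC-cKO and from 0.035 to -0.12 for the interaction. Over all genes, the robust limma fit called 157 higher and 142 lower in uninjured MuSCs, 10 and 18 at 3 DPI, 547 and 473 for injury in TRF2 MuSC-cKO (354 and 235 with edgeR) and 45 and 78 for the interaction. Without library 3 of TRF2 MuSC-cKO 3 DPI, edgeR called 3 higher and 13 lower at 3 DPI and 803 and 513 for injury in TRF2 MuSC-cKO.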

Other observations

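Promoter windows of the members were also searched for the G-quadruplex motif, that is 4 runs of at least 3 G parted by 1 to 7 bases of any kind, on either strand. It occurs in the window of Bcl2 and in 2 of the 3 windows of Bbc3, and in none of the others among the 8 members with a window, and 18.6% of all 32851 promoters of this length hold it. A match describes the sequence only.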
